A study of Pelodiscus sinensis with 8 samples.

Results

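MSX1, MSX2 and ID4 are transcription regulators that respond to bone morphogenetic protein (BMP) signals. They were taken by symbol from the deposited expression tables of interdigital webs of the Chinese soft-shell turtle (Pelodiscus sinensis), an aquatic turtle with webbed feet. The 3 genes stood among 19328 in the table, and all 3 were among the 14386 with enough counts to be tested. They have the identifiers ENSPSIG00000016608 (MSX1), ENSPSIG00000010376 (MSX2) and ENSPSIG00000014895 (ID4).

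The embryos were wild type and had reached Tokita-Kuratani stage 19, on a staging table made for this turtle. The hindlimb group, which the labels tag "anti-ICD", held 4 libraries, and so did the forelimb group, tagged "ICD". The labels do not spell these tags out, and no treatment was named for either limb. Web 1 lies between digits I and II, webs 2 and 3 follow in order, and web 4 lies between digits IV and V. Each library was a pool of 40 pieces of tissue, from left and right limbs of 20 individuals, and the same individuals gave every pool. No web of a limb had a second pool of other animals. P-values therefore measure the spread between these pools, and nothing of the spread between animals.

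BMPs are secreted ligands that bind paired serine/threonine kinase receptors, which phosphorylate SMAD proteins that enter the nucleus and act on target genes. In limbs of mouse and chick embryos, BMP signals between the digits take part in the regression of interdigital tissue, and secreted antagonists such as Gremlin and Noggin limit them. MSX1 and MSX2 are closely related homeodomain proteins that act mostly as repressors and are widely used as readouts of BMP signalling in limb buds of those species. ID4 belongs to a family of helix-loop-helix proteins without a DNA-binding region, which pair with E proteins and keep them off DNA.

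The libraries held 53116512 to 65849337 counts, and their log2 levels correlated with each other at 0.955 to 0.981. MSX1 had 12759 to 36647 counts in a library, MSX2 had 27498 to 62263 and ID4 had 2733 to 6245, so none of them was near the filter on low counts. Levels are given as CPM, counts divided by the TMM-scaled library total, which compares a gene between libraries, and as the authors' deposited TPM where genes are compared with each other, since TPM takes gene length into account. Genes that mark limb mesenchyme were present in every library, with a summed level of 3665 to 4462 TPM in the hindlimb webs and 3567 to 4955 TPM in the forelimb webs for the 6 listed genes found in the table. How reads were assigned to strands was not stated, so an antisense transcript cannot be told apart from its partner. The RefSeq gene table showed no gene that overlaps MSX1, MSX2 or ID4.

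All 3 genes were lower in web 4 than in web 1 in both limbs. MSX1 stood at 470, 451, 288 and 235 CPM in hindlimb webs 1 to 4, and at 479, 546, 296 and 252 CPM in forelimb webs 1 to 4. In each limb, both of its values in webs 1 and 2 lay above both of those in webs 3 and 4. MSX2, the more deeply counted of the pair, stood at 928, 936, 752 and 505 CPM in hindlimb webs 1 to 4, and at 809, 927, 739 and 549 CPM in forelimb webs 1 to 4. Its webs 1 to 3 lay closer together, and web 4 was lowest in both limbs. ID4 stood at 82.6, 77.2, 52.1 and 50.2 CPM in hindlimb webs 1 to 4, and at 105, 80.0, 63.2 and 61.8 CPM in forelimb webs 1 to 4. It was lower in each web than in the one before in both limbs, and its webs 3 and 4 nearly coincided.

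**Figure D1:**
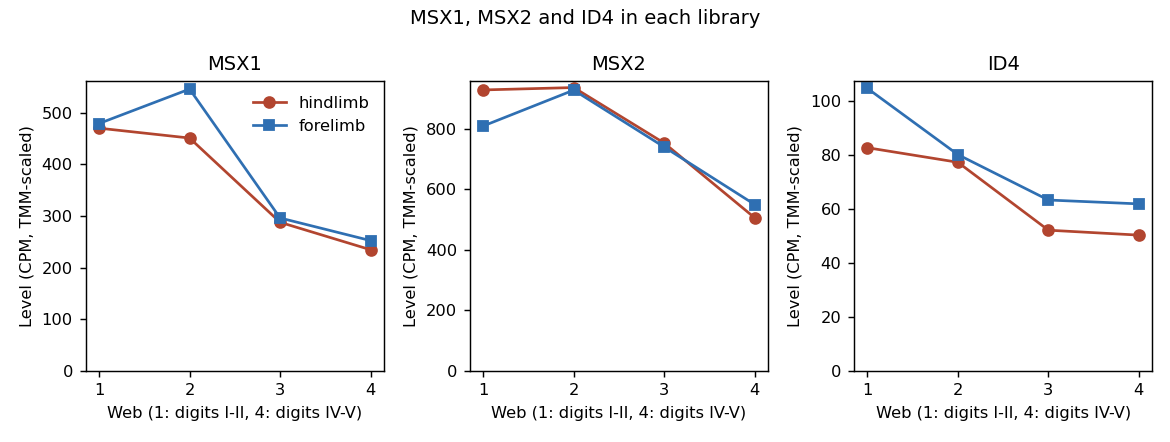
Level of MSX1, MSX2 and ID4 in CPM (TMM-scaled, vertical axis from 0) against web number, with 1 point for each of the 8 libraries, hindlimb as circles and forelimb as squares. All 6 lines end lower in web 4 than in web 1, MSX1 drops most between webs 2 and 3, and the ID4 circles lie below the squares in every web.

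The first question was whether the levels change along the foot. A straight slope over web number, with limb as a covariate, was fitted to all genes with edgeR's quasi-likelihood test and Benjamini-Hochberg adjustment at 0.05. All 3 genes fell toward web 4, in a fit where 956 of 14386 genes (6.65%) fell and 644 (4.48%) rose. MSX1 fell by 0.37 ± 0.0551 log2 units per web (SE; adjusted p = 0.00148 in the edgeR test). The MSX2 slope was -0.25 ± 0.0515 (adjusted p = 0.00986) and that of ID4 was -0.27 ± 0.0365 (adjusted p = 0.000919). Among the 956 genes that fell, ordered from the steepest, MSX1 ranked 455, ID4 ranked 627 and MSX2 ranked 660. The 3 genes thus stood in the middle and the shallower part of that list. The falling genes numbered 553 without hindlimb web 1 and 583 without forelimb web 1, and the rising genes 322 without hindlimb web 1 and 380 without hindlimb web 4.

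Web 4 set against web 1 gave the size of the decline in each limb. MSX1 in web 4 stood at 49.9% of its web 1 level in the hindlimb and at 52.6% in the forelimb. MSX2 stood at 54.5% in the hindlimb and 67.9% in the forelimb, and ID4 at 60.8% in the hindlimb and 59.1% in the forelimb. These ratios come from 1 library over another and carry no error of their own.

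The steps between neighbouring webs differed among the genes. For MSX1 the step from web 2 to web 3 was the largest in both limbs, at -0.65 log2 CPM in the hindlimb and -0.88 in the forelimb. For MSX2 the largest step was the last one, from web 3 to web 4, at -0.57 in the hindlimb and -0.43 in the forelimb. ID4 changed little in that last step, with -0.05 in the hindlimb and -0.03 in the forelimb. Its largest step lay between webs 2 and 3 in the hindlimb (-0.57) and between webs 1 and 2 in the forelimb (-0.39).

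Leaving out libraries showed which webs carry the slopes. The slope of MSX2 rested on web 4: without hindlimb web 4 it was -0.19 (Benjamini-Hochberg adjusted p = 0.0671 in edgeR's test), and without web 4 of both limbs it was -0.11 (adjusted p = 0.263). Without web 1 of both limbs it was steeper, at -0.41 (adjusted p = 0.000574). The slope of MSX1 passed without each library in turn, at -0.43 to -0.34 (adjusted p from 0.00039 to 0.0114), and without web 4 of both limbs, at -0.35 (adjusted p = 0.0319). That of ID4 passed in all 18 alternatives run, which include each limb alone, both pairs of end webs left out and each library left out. Fitted on the hindlimb alone, the slopes of MSX1, MSX2 and ID4 passed, and on the forelimb alone that of ID4 passed (-0.26, adjusted p = 0.0448), while MSX1 had -0.37 (adjusted p = 0.0721) and MSX2 had -0.20 (adjusted p = 0.233). The 2 libraries of a web share their position and their animals, and the fit takes them as independent, which can make its p-values too small.

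**Figure D2:**
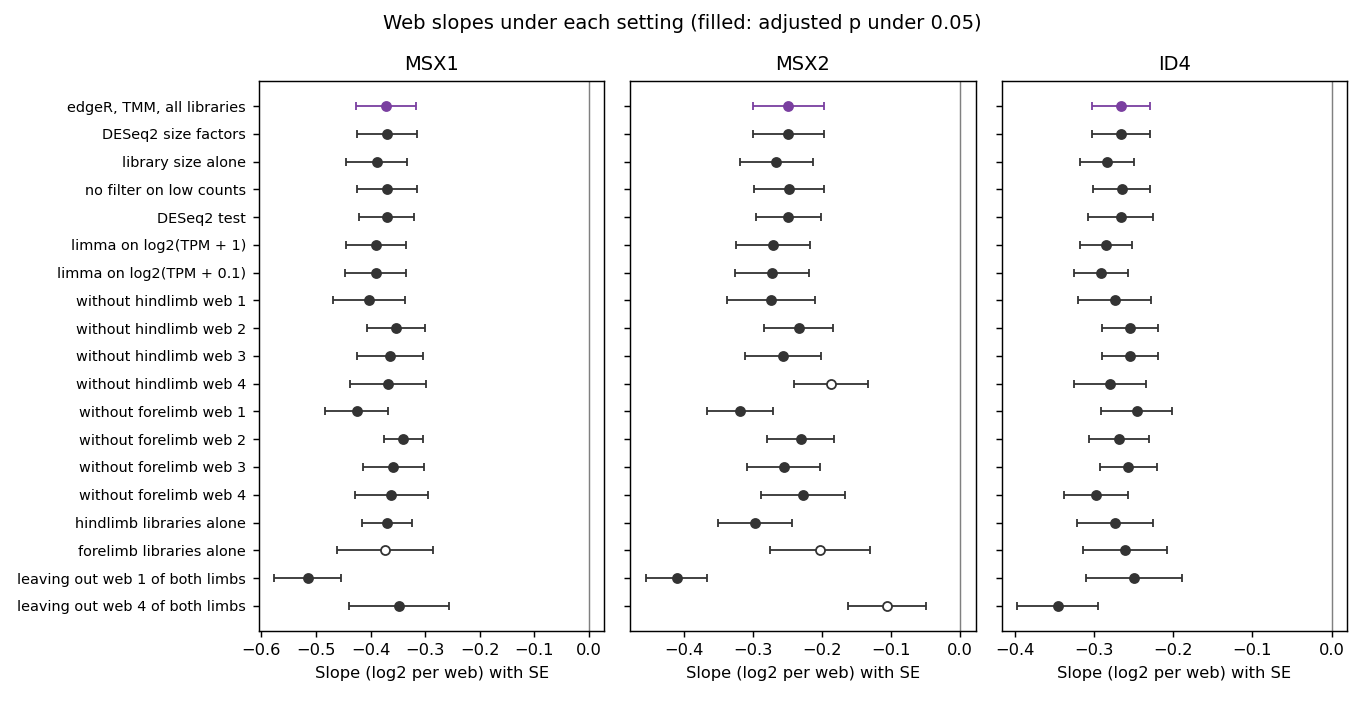
Web slope of MSX1, MSX2 and ID4 in log2 units per web (horizontal axis) with its SE under each scaling, test and set of libraries, the reported fit on top; filled points passed an adjusted p of 0.05. Every point lies below 0, and the open points are those of MSX1 and MSX2 in the forelimb alone and of MSX2 without hindlimb web 4 or without web 4 of both limbs.

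A second fit asked whether the middle webs (2 and 3) lay above or below the line through the outer webs (1 and 4), with limb and web number as covariates. In MSX2 the middle webs were higher by 0.30 ± 0.0623 log2 units, which missed the threshold in the edgeR quasi-likelihood test (adjusted p = 0.0562, unadjusted p = 0.000463). The DESeq2 test on the same counts passed it (0.30, adjusted p = 0.000182), as did edgeR without forelimb web 4 (0.36, adjusted p = 0.0272) and edgeR scaled by library size alone (0.31, adjusted p = 0.0496). The other 12 alternatives did not pass, among them limma on TPM (adjusted p = 0.105 and 0.112), edgeR without forelimb web 1 (0.24, adjusted p = 0.289) and edgeR with limb as the only covariate (0.27 ± 0.2, adjusted p = 0.843). MSX1 had 0.18 ± 0.105 (adjusted p = 0.501) and ID4 had -0.10 ± 0.0772 (adjusted p = 0.636). Thus in the TMM-scaled edgeR fit on all libraries 0 of the 3 genes passed and 1 had an unadjusted p under 0.05. In that fit 0.709% of the genes tested passed in either direction.

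The labelled contrast, hindlimb against forelimb, gave no call for the 3 genes. MSX1 averaged 361 ± 117 CPM in hindlimb webs, against 393 ± 141 CPM in forelimb webs (mean ± SD, n = 4 each). The means of MSX2 were 780 ± 202 CPM in hindlimb webs and 756 ± 158 CPM in forelimb webs, and those of ID4 were 65.5 ± 16.8 CPM in hindlimb webs and 77.4 ± 19.9 CPM in forelimb webs. The ranges of the limbs overlapped in all 3 genes, since each limb spans the decline over its webs. With limb as the only term, the log2 difference (hindlimb minus forelimb) was -0.12 ± 0.288 for MSX1, 0.05 ± 0.207 for MSX2 and -0.24 ± 0.211 for ID4 (edgeR, adjusted p = 1 for each). None of the 3 was called or had an unadjusted p under 0.05, DESeq2 called 0 of them, and 0.0209% of all genes tested were called in edgeR. The 95% intervals ran from -0.77 to 0.52 for MSX1, from -0.42 to 0.51 for MSX2 and from -0.71 to 0.23 for ID4. The sign for MSX1 turned without hindlimb web 4 (0.03) or forelimb web 2 (0.08), and that for MSX2 without hindlimb web 1 (-0.04), hindlimb web 2 (-0.05) or forelimb web 4 (-0.08) and in limma on TPM.

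Compared within webs, ID4 was lower in the hindlimb in each of 4 webs, by 0.34, 0.05, 0.28 and 0.30 log2 units in webs 1 to 4. With web number as a block, which takes the decline over the webs out of the error, the ID4 difference was -0.24 ± 0.0681, with a 95% interval from -0.39 to -0.09. Its unadjusted p of 0.00495 became an adjusted p of 0.311 in the edgeR quasi-likelihood test with Benjamini-Hochberg adjustment over 14386 genes, so the difference was not called. Summed marker levels of 4 of the 10 listed cell types were also lower in the hindlimb in each of 4 webs. For epidermis they were 868.6 to 2567 TPM in the hindlimb and 896.5 to 3692 TPM in the forelimb, for red blood cells 561.3 to 1178 TPM in the hindlimb and 1116 to 1895 TPM in the forelimb. For pigment cells they were 64.2 to 76.1 TPM in the hindlimb and 79.6 to 108.8 TPM in the forelimb, and for Schwann cells 4.37 to 8.37 TPM in the hindlimb and 4.61 to 11.6 TPM in the forelimb. The epidermis sum was mostly KRT15 (mean 1334 TPM). The red blood cell sum held 2 of 6 listed genes and was mostly HBZ (mean 1138 TPM). In CPM, KRT15 alone of the 7 epidermis genes found was lower in the hindlimb in each web. KRT18 was higher in the hindlimb in webs 2 to 4. The part of these 4 cell types in the ID4 difference was not tested. With the block 24 genes (0.167% of those tested) were called, against 3 without it, and MSX1, MSX2 and ID4 were not among them. MSX1 was also lower in the hindlimb in each of 4 webs, with -0.03, -0.28, -0.04 and -0.11 in webs 1 to 4 and a blocked difference of -0.11 ± 0.0607 (adjusted p = 0.641). MSX2 had 0.20, 0.01, 0.03 and -0.12 in webs 1 to 4, and a blocked difference of 0.03 ± 0.0641 (adjusted p = 0.937), with a 95% interval from -0.11 to 0.17.

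**Figure D3:**
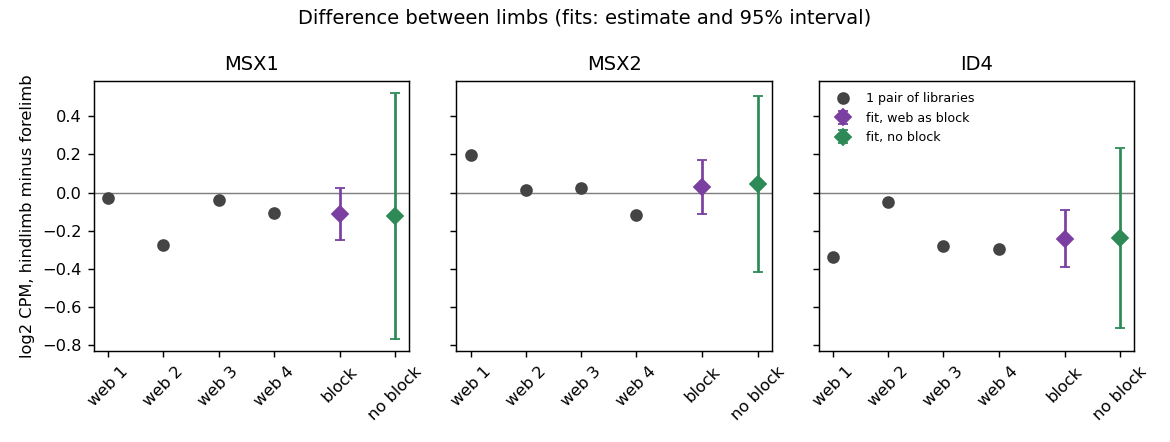
Hindlimb minus forelimb in log2 CPM (vertical axis) for MSX1, MSX2 and ID4, with a grey point for the 1 pair of libraries of each web, and diamonds for the fits with and without web number as a block, with 95% intervals. The 4 ID4 points lie below 0, at -0.34 to -0.05, and the interval of the blocked ID4 fit ends at -0.09. The unblocked ID4 interval and both intervals of MSX1 and of MSX2 include 0. The intervals are not adjusted for the number of genes tested, and the blocked ID4 difference was not called (edgeR, adjusted p = 0.311).

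Whether the slope differs between limbs was tested as an interaction of limb and web number. The hindlimb slope minus the forelimb slope was 0.01 ± 0.115 log2 units per web for MSX1, -0.09 ± 0.104 for MSX2 and -0.01 ± 0.0767 for ID4 (edgeR, adjusted p = 0.999, 0.996 and 0.997). The test called 0 of 14386 genes (0%), with 558 at an unadjusted p under 0.05, and DESeq2 called 1. The 95% intervals of the difference ran from -0.25 to 0.26 for MSX1, from -0.32 to 0.14 for MSX2 and from -0.18 to 0.16 for ID4.

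Per unit of gene length, MSX1 and MSX2 were of similar level, while ID4 was far lower. MSX1 averaged 427 TPM over the 8 libraries, MSX2 373 TPM and ID4 44.1 TPM. Among 19328 genes ordered by TPM from the highest, MSX1 ranked 192 to 487 across the libraries, MSX2 254 to 536 and ID4 2346 to 4641. MSX1 exceeded MSX2 in webs 1, 2 and 4 and lay below it in web 3: the ratio of MSX1 to MSX2 was 1.18, 1.12, 0.890 and 1.08 in hindlimb webs 1 to 4, and 1.38, 1.37, 0.932 and 1.07 in forelimb webs 1 to 4. The order of the MSX genes is thus not the same in every web, and ID4 was the lowest of the 3 in every library.

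The other ID genes found in the table did not pass the test for a slope. ID2 (ENSPSIG00000004438), which like ID4 pairs with E proteins, stood at 410, 481, 387 and 321 CPM in hindlimb webs 1 to 4, and at 385, 419, 374 and 396 CPM in forelimb webs 1 to 4. ID3 (ENSPSIG00000016125), the ID gene of highest level, stood at 657, 834, 745 and 728 CPM in hindlimb webs 1 to 4, and at 560, 707, 651 and 699 CPM in forelimb webs 1 to 4. Both genes were highest in web 2 in either limb. Their slopes were -0.07 ± 0.0427 for ID2 and 0.05 ± 0.0384 for ID3, and neither passed (edgeR, adjusted p = 0.347 and 0.423). ID1 did not stand under a symbol and was not analysed here.

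ID3 averaged 3176 TPM and ID2 1092 TPM, so the 44.1 TPM of ID4 made it the scarcest of the 3 ID transcripts in these webs. The ratio of ID4 to ID3 in TPM was 0.0170, 0.0125, 0.00942 and 0.00930 in hindlimb webs 1 to 4, and 0.0252, 0.0153, 0.0131 and 0.0119 in forelimb webs 1 to 4. It was lower in each web than in the one before, in both limbs. The slope of its log2 was -0.32 per web, with p = 0.00347 in a two-sided exact permutation test over all 576 orders of the webs within the limbs, the smallest p they can give, and an adjusted p of 0.0174 over 5 ratios. Those ratios were chosen after the values were seen. The permutation tests of the ratios reordered the webs of each limb on its own. The 2 libraries of a web share position and animals, so these p-values can be too small. Without 1 library the slope ran from -0.37 to -0.27, and 144 orders remained. Without a web 1 or a web 4 the exact permutation p was 0.0139 in each of 4 cases, the smallest that these orders can give. Alone it becomes 0.0694 over 5 ratios and can pass only beside another ratio as low, so these cases say little of stability. Without a web 2 the p was 0.00694 in both limbs (adjusted p = 0.0347 in these exact tests). It missed the threshold without hindlimb web 3 (exact permutation p = 0.0139, adjusted p = 0.0521) or forelimb web 3 (exact permutation p = 0.0208, adjusted p = 0.104). Of the 8 cases with 1 library left out, 3 passed after adjustment and 5 did not. For ID4 to ID2 the slope was -0.20 (exact permutation p = 0.0208, adjusted p = 0.052). Ratios between the 3 genes themselves had slopes of -0.12 (MSX1 to MSX2), -0.10 (MSX1 to ID4) and 0.02 (MSX2 to ID4), and none passed (exact permutation tests, adjusted p from 0.213 to 0.826).

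**Figure D4:**
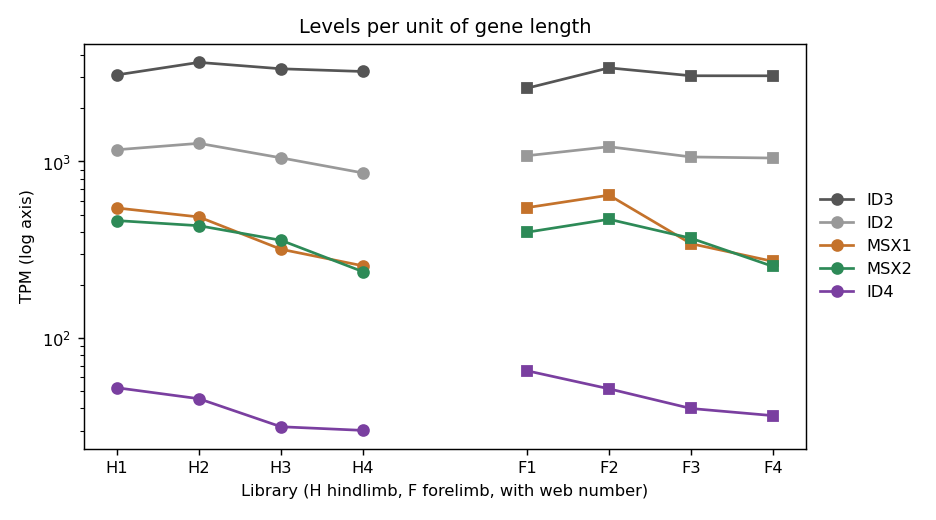
TPM on a log axis of ID3, ID2, MSX1, MSX2 and ID4 in each library, with hindlimb webs 1 to 4 (H1 to H4, circles) left of forelimb webs 1 to 4 (F1 to F4, squares). ID3 lies at 2599 to 3638 TPM and ID2 at 861 to 1267 TPM, with its lowest point in hindlimb web 4. The MSX lines run close together and decline, and ID4 declines at a level of 30.1 to 65.4 TPM.

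Across the 8 libraries, log2 CPM of MSX1 correlated with that of MSX2 at r = 0.898 and with that of ID4 at 0.873, while MSX2 and ID4 had r = 0.684. Each was lowest without hindlimb web 4, at 0.866, 0.825 and 0.527 for the same pairs. These values are descriptions, since the 8 points share animals in all webs and web positions in pairs.

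The genes most like each member were taken as the 5 with the highest correlation among 8406 tested genes with a unique symbol and a mean of at least 5 CPM. For MSX1 they were GFRA2 (r = 0.983), a co-receptor for neurturin, TLR3 (0.981), a receptor for double-stranded RNA, DACH2 (0.980), a transcription cofactor, QDPR (0.979), which recycles tetrahydrobiopterin, and TGM2 (0.976), a transglutaminase. For MSX2 they included MINAR1 (0.995), the Notch target HEYL (0.985), the tendon factor MKX (0.975) and the endocytic adaptor DAB2 (0.975). For ID4 they were FAM3D (0.983), MSLN (0.983), a surface glycoprotein of mesothelium, the kinase SGK2 (0.979), STX19 (0.977) and ZNF750 (0.977), a regulator of epidermal differentiation. The 3 groups of named genes shared no gene, which says little with 5 taken of 8406 for each member. Each gene named here fell toward web 4. That follows largely from the choice by correlation with a member that fell, and is no separate result. With slopes of -1.88 to -0.20 log2 units per web, most were steeper than the member they resembled.

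The protein-coding genes next to MSX1, MSX2 and ID4 were looked up by position in the RefSeq assembly ASM4963464v1, as a comparison. Beside MSX1, STX18 had a slope of -0.05 ± 0.0395 (edgeR, adjusted p = 0.458), and CYTL1 fell by 1.58 ± 0.348 (adjusted p = 0.0142) at a mean of only 1.17 CPM. Beside MSX2, NSG2 fell by 0.18 ± 0.0392 (adjusted p = 0.0151), while DRD1 had -0.17 ± 0.13 (adjusted p = 0.458). Beside ID4, MBOAT1 had -0.11 ± 0.0591 and RNF144B -0.25 ± 0.114 (adjusted p = 0.287 and 0.209). Thus 2 of 6 neighbours fell, CYTL1 and NSG2, where 6.65% of all genes tested fell.

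The other listed genes, of the BMP pathway and of a list of helix-loop-helix factors, moved in both directions. The 7 lists by role, together called the pathway lists, held 53 genes, of which 44 were in the table and tested. Of these, 12 (27.3%) rose toward web 4, 9 (20.5%) fell and 23 did not pass. Over all genes tested 4.48% rose and 6.65% fell. The lists were chosen with earlier results of these data known, so these shares are descriptions and no test of enrichment. The E proteins and other helix-loop-helix factors, HAND2 among them, are not parts of the BMP pathway itself. They gave 4 of the 12 that rose and 0 of the 9 that fell. The median slope of the 44 was 0.06, against 0.00 over all genes tested. The number that rose moved to 7 without hindlimb web 1, 7 without web 1 of both limbs and 4 in the forelimb alone. The number that fell was 6 to 7 whichever library was left out. Between limbs 0 of the 44 were called in edgeR, 0 had an unadjusted p under 0.05 and DESeq2 called 0, where 0.0209% of all genes were called. With web number as a block 1 was called, HAND2, beside 0.167% of all genes. In the interaction 0 were called in edgeR, as in all genes (0%), 2 had an unadjusted p under 0.05 and DESeq2 called 0. In the middle webs 2 were called, HAND2 and BMPER, both higher there, beside 0.709% of all genes.

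Among 7 BMP ligands, 1 rose and 2 fell. BMP7 rose (0.45 ± 0.0332 log2 units per web; edgeR, adjusted p = 2.56e-05), and BMP5 fell (-0.34 ± 0.0488, adjusted p = 0.00125), though not in the forelimb alone (adjusted p = 0.101). GDF5, a ligand of joint formation, also fell (-0.82 ± 0.232, adjusted p = 0.0443), but at a mean of 0.545 CPM, and its call ended whichever library was left out (adjusted p from 0.0647 to 0.197). BMP2 had a slope of -0.22 ± 0.0658 and narrowly missed the threshold (edgeR, adjusted p = 0.0558), and BMP4 had -0.06 ± 0.0505 (adjusted p = 0.512). Of the 6 receptors, BMPR1A, a type I receptor for BMPs, rose (0.16 ± 0.0334, adjusted p = 0.0088), a call that ended without hindlimb web 1 (adjusted p = 0.0778), hindlimb web 4 (0.0579) or web 1 of both limbs (slope 0.10, adjusted p = 0.382), in the forelimb alone (0.364) and in limma on TPM (0.0577 and 0.0586 with pseudocounts of 1 and 0.1). The 4 SMADs did not pass, and SMAD5 (0.00 ± 0.0358) and SMAD4 (0.00 ± 0.0243), those of highest level, were flat and changed sign between settings.

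Genes listed as inhibitors moved in both directions. SMAD7, which blocks receptor signalling from inside the cell and is induced by it, fell (-0.13 ± 0.0364; edgeR, adjusted p = 0.0457), and its call also ended whichever library was left out (adjusted p from 0.058 to 0.198). Of 10 genes on a list of BMP antagonists, 3 rose and 2 fell. Whether each acts against BMP in these webs was not tested. TWSG1 (0.15 ± 0.0317, adjusted p = 0.0121), CRIM1 (0.15 ± 0.0331, adjusted p = 0.0138) and BMPER (0.49 ± 0.123, adjusted p = 0.0253) rose, and FST, the antagonist follistatin, fell (-0.60 ± 0.107, adjusted p = 0.00408). NOG, which encodes Noggin (ENSPSIG00000001914), also fell (-0.58 ± 0.156, adjusted p = 0.0371) at a mean of 1.34 CPM. Its call held without forelimb web 4 and ended without any other single library (edgeR, adjusted p from 0.0518 to 0.147). The calls of TWSG1 and BMPER ended without hindlimb web 1 or forelimb web 1 (adjusted p from 0.0598 to 0.142) and in either limb alone (0.0537 to 0.154). Without web 1 of both limbs the BMPER slope was 0.15 (adjusted p = 0.671) and that of TWSG1 did not pass either (0.276), nor did TWSG1 pass without web 4 of both limbs (0.0524). The CRIM1 call ended without hindlimb web 1 or 4 (0.1 and 0.0778), without web 1 of both limbs (0.166), in the forelimb alone (0.45) and in limma on TPM (0.0792 and 0.0763). The 5 genes of the antagonist list that did not pass include GREM1, at 0.20 ± 0.0741 (adjusted p = 0.11).

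The list of other BMP-responsive genes was split as well. Whether each of them answers to BMP in these webs was not tested. Of 9 tested, 4 fell, 3 rose, and ID2 and ID3 did not pass. DLX6 (-0.69 ± 0.0529; edgeR, adjusted p = 2.56e-05), DLX5 (-0.45 ± 0.0443, adjusted p = 0.000137), both homeodomain factors of skeleton and apical ridge, and the Notch and BMP target HEY1 (-0.57 ± 0.063, adjusted p = 0.00023) fell, with slopes steeper than that of MSX1, a difference that was not tested. TBX2, a repressor of posterior and interdigital limb mesenchyme in mouse and chick, rose (0.58 ± 0.0381, adjusted p = 1.59e-05).

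Of 5 E proteins and other helix-loop-helix factors, 4 rose toward web 4, while 4.48% of all genes tested rose. This list too was chosen with earlier results known, so its share is a description. A relation of these slopes to that of ID4 was not tested. TCF12 rose by 0.23 ± 0.03 log2 units per web (edgeR, adjusted p = 0.000735) and TCF4 by 0.25 ± 0.0576 (adjusted p = 0.0174). These are E proteins, the class that ID proteins bind, and the TCF4 call ended without hindlimb web 4 (0.0582), forelimb web 1 (0.0663) or web 1 of both limbs (0.106). In the forelimb alone TCF12 and TCF4 did not pass (0.0659 and 0.112). TWIST2 rose by 0.40 ± 0.0511 (adjusted p = 0.000561) and HAND2, a posterior limb factor, by 0.93 ± 0.0858 (adjusted p = 9.13e-05). TCF3, the E protein of highest count, had 0.06 ± 0.0421 and did not pass (adjusted p = 0.41).

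**Figure D5:**
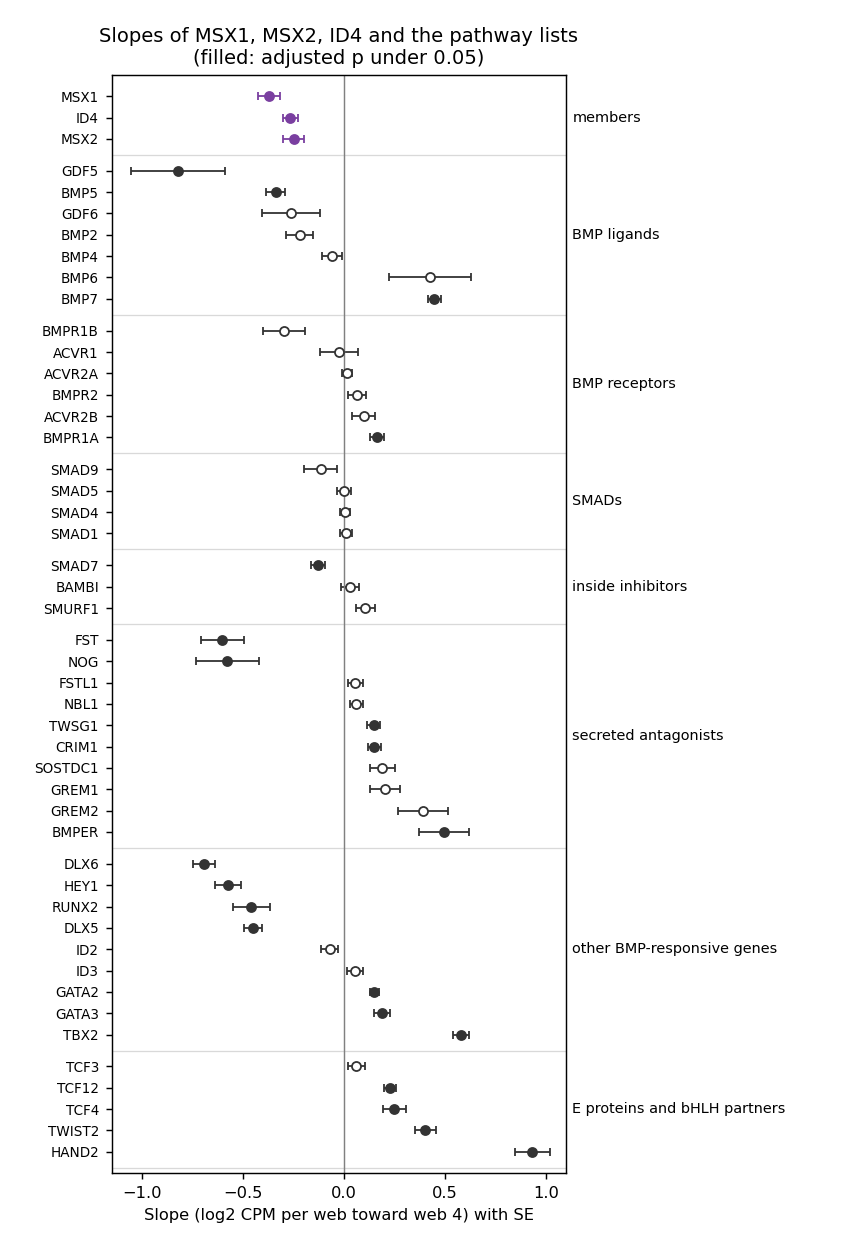
Web slope (log2 CPM per web toward web 4, horizontal axis) with its SE for MSX1, ID4 and MSX2 on top and for the 44 tested genes of the 7 lists below, the last of them helix-loop-helix factors. Filled points passed an adjusted p of 0.05. Filled points lie on both sides of 0 in 3 of the lists, from GDF5 at -0.82 to HAND2 at 0.93.

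Markers of other cell types differed along the webs too. In bulk tissue, fewer cells of a type and less RNA per cell cannot be told apart. The summed level of the 7 epidermis genes found, of 11 listed, was 2567, 1629, 880.9 and 868.6 TPM in hindlimb webs 1 to 4, and 3692, 2100, 992.2 and 896.5 TPM in forelimb webs 1 to 4. Most of this sum was KRT15, which fell (-0.81 ± 0.0665; edgeR, adjusted p = 3.75e-05). GRHL3 also fell (-0.63 ± 0.0669), TP63 rose (0.22 ± 0.0477), and EPCAM, KRT18, GRHL2 and ESRP1 did not pass (edgeR, adjusted p from 0.105 to 0.884). None of the 7 was at 0 in all libraries.

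Smaller lists also had lower mean sums in web 4 than in web 1, though not always in steady order. The mean sums of apical ridge genes and of macrophage and leukocyte genes were lowest in web 3. They stood at 35.8 and 39.25 TPM there, against 37.3 and 45.4 TPM in web 4. The 4 apical ridge genes found summed to 32.6 to 60.7 TPM in the hindlimb and 32.5 to 80.3 TPM in the forelimb, with means of 70.5 TPM in web 1 and 37.3 TPM in web 4. FGF8, which defines the ridge, had 40 counts over all libraries and was not tested. Of the others DLX2 and DLX3 fell and SP9 rose. Endothelium genes summed to 34.8 to 53.9 TPM in the hindlimb and 27.8 to 56.5 TPM in the forelimb, and 3 of 7 fell. For macrophages and leukocytes the sums were 40.2 to 86.0 TPM in the hindlimb and 38.3 to 94.8 TPM in the forelimb, and 3 of 6 fell. Schwann cell genes summed to 4.37 to 8.37 TPM in the hindlimb and 4.61 to 11.6 TPM in the forelimb, and 2 of 3 fell. Over all genes tested 6.65% fell and 4.48% rose.

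Limb mesenchyme genes showed no such order, with mean sums of 4021, 4310, 4396 and 4015 TPM in webs 1 to 4. The limbs differed here: between webs 1 and 4 the sum went from 3837 to 4462 TPM in the hindlimb and from 4205 to 3567 TPM in the forelimb. Among the mesenchyme genes PRRX1, a mesenchymal homeodomain factor, fell (-0.30 ± 0.0635; edgeR, adjusted p = 0.0122) and the proteoglycan LUM rose (0.67 ± 0.0523, adjusted p = 2.65e-05). Cartilage genes had mean sums of 263.8 TPM in web 1 and 266.0 TPM in web 4, where the hindlimb had 284.7 TPM and the forelimb 247.4 TPM. Red blood cell genes had mean sums of 1227 TPM in web 1 and 1228 TPM in web 4, but the limbs moved in opposite directions. Between these webs the sum went from 1178 to 561.3 TPM in the hindlimb and from 1276 to 1895 TPM in the forelimb. Pigment cell genes had mean sums of 86.9 TPM in web 1 and 71.9 TPM in web 4. Skeletal muscle genes had a lower mean sum in web 4 (104.7 TPM) than in web 1 (235.5 TPM), with the lowest in web 3 (70.2 TPM), though 0 of the 5 tested were called. Between webs 1 and 4 the sum went from 304.6 to 66.2 TPM in the hindlimb and from 166.3 to 143.3 TPM in the forelimb. The part of these cell types in the slopes of MSX1, MSX2 and ID4 was not tested.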

How the data were processed

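The authors deposited 2 tables, whole-number counts per gene and TPM per gene with symbols. These count values were not normalised. The deposited TPM values correct for gene length and sum to the same total in each library, which removes depth. HISAT2 2.2.1 and StringTie 2.1.7 are the tools named, per the submitters' processing notes. For the build, the annotation and the strand setting, the sources used here give nothing. Of 20472 counts from 1 to 40, 35.5% were multiples of 4 where evenly spread values would give 25%. The deposited counts may thus derive from read coverage rather than from counted reads, which was not settled, and counting intervals are not printed.

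The fits used edgeR 4.0.16 in R 4.3.3: filterByExpr (minimum count 10, minimum total 15), TMM factors of 0.973 to 1.02, and quasi-likelihood tests, with p-values adjusted by Benjamini-Hochberg over 14386 genes and called at 0.05. Residual degrees of freedom were 6 for limb, 5 for web slope, and 4 each for the interaction and the middle webs. The limb fit with web number as a block had the fewest, 3. Standard errors are the log2 estimate divided by the root of F. Alternatives used DESeq2 1.42.0, limma 3.58.1 on log2(TPM + 1) and log2(TPM + 0.1), other scalings, no filter, and fewer libraries. The edgeR tests were also run on simulated counts drawn as independent libraries. The pools here share animals and positions, so that run could not show whether the p-values hold for this design. Correlations used log2 CPM with a prior count of 2.

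Libraries with the same web number share position and animals, per the labels. Web number was taken to pair them. In webs 1 to 4 the hindlimb and forelimb deviations from their own limb mean had correlations of 0.498, 0.189, 0.242 and 0.327. Neighbouring webs reached 0.237.

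The rule named MSX1, MSX2, ID4 and the other ID genes, up to 4 called genes of each pathway list (or the 2 of highest CPM where none was called), and the 5 genes most like each member, of which 1 is not reported here. BMP2, BMP4, NOG, GREM1, TCF3 and the marker genes were named outside that rule, after their values were seen. The members, the 7 pathway lists and the 10 marker lists were chosen with earlier results of these data known. Listed genes without a symbol in the table were not analysed here.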

Additional observations from a re-analysis of the deposited data

Results flagged for a closer look

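The level of SMAD4, the SMAD shared by BMP and TGF-beta signalling, was 132.6 CPM in forelimb web 4, while the other 3 forelimb webs lay between 126.3 and 126.9 CPM. The gap over the range of the 4 libraries was 0.897, above the 95% critical value for a group of 4. This was 1 of 48 groups of 4 libraries looked at, over 24 genes, and chance alone flags about 1 in 20 groups. The gap is small against the level, and the reason for it was not tested.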

How the results depend on the processing

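The decline of MSX1, MSX2 and ID4 kept its direction under all 18 alternatives for each gene. It ended as a call for MSX1 in the forelimb alone (-0.37) and for MSX2 in the forelimb alone (-0.20) and without hindlimb web 4, as well as in 6 libraries without either web 4 (-0.11); the last setting and its web 1 counterpart were added after seeing the data. Leaving out 1 library gave slopes of -0.43 to -0.34 for MSX1, -0.32 to -0.19 for MSX2 and -0.30 to -0.25 for ID4. The limb difference of MSX2 turned to -0.0095 in limma on TPM with either pseudocount. Without 1 library it ran from -0.080 to 0.21, that of MSX1 from -0.29 to 0.079 and that of ID4 from -0.37 to -0.060. The interaction ran from -0.099 to 0.19 for MSX1, -0.24 to 0.084 for MSX2 and -0.084 to 0.091 for ID4 without 1 library. The middle-web difference of MSX2 passed in DESeq2 (0.30), with library size alone (0.31) and without forelimb web 4, and ran from 0.24 to 0.36 without 1 library. With web number as a replicate block, 24 genes differed between limbs, against 3 without it and 18 in DESeq2, and it changed no call of MSX1, MSX2 or ID4. Rising genes numbered 377 and 370 in limma (pseudocounts 1 and 0.1), 129 in the forelimb alone and 286 without web 1 of both limbs, and 322 to 842 without 1 library. Falling genes numbered 247 in the forelimb alone and 395 without web 1, and 553 to 1047 without 1 library. Of the genes in the pathway lists, helix-loop-helix factors included, 4 rose and 4 fell in the forelimb alone and 7 rose without web 1. Without 1 library 7 to 16 rose and 6 to 7 fell. The interaction was called for 1 gene in DESeq2, and for 0 to 2 without 1 library. Middle webs gave 442 genes in DESeq2, 30 and 34 in limma, 1 with limb as the only covariate, and 26 to 200 without 1 library. Single slopes near 0 changed sign. SMAD5 had -0.017 on library size, -0.024 in limma with either pseudocount, -0.070 in the hindlimb alone, -0.055 without web 1 of both limbs and -0.037 to 0.039 without 1 library. SMAD4 had -0.013 on library size, -0.020 and -0.021 in limma (pseudocounts 1 and 0.1), -0.015 in the hindlimb alone, -0.0092 without web 1 of both limbs and -0.0085 to 0.023 without 1 library. ID3 had -0.053 without web 1 of both limbs, and the ratio of MSX2 to ID4 ran from -0.071 to 0.096 without 1 library. The causes were not tested. GDF5 averaged only 0.545 CPM, and how depth bears on its call was not tested.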
